A study of Homo sapiens with 30 samples.

Results

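The 10 genes described here set the pace of the first gap phase of the cell cycle, G1. They are the D-type cyclins CCND1, CCND2 and CCND3, the E-type cyclins CCNE1 and CCNE2, the CDK inhibitors CDKN1B, CDKN1C, CDKN2B and CDKN2C, and the transcription factor MYC. They were taken by symbol from the count tables, where all 10 were found among 24462 gene symbols. D-type cyclins bind CDK4 and CDK6 and begin the phosphorylation of the retinoblastoma protein RB, which frees E2F factors, and E-type cyclins with CDK2 complete that step. The INK4 inhibitors (CDKN2B, which makes p15, and CDKN2C, which makes p18) block CDK4 and CDK6. The CIP/KIP inhibitors (CDKN1B, which makes p27, and CDKN1C, which makes p57) act mainly on CDK2 complexes. MYC raises transcription of genes for growth and ribosome production, and in the intestinal epithelium CCND1 and MYC are known targets of WNT signalling.

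The series measured RNA in 3 human colorectal cancer lines, Caco2, HCT116 and SW480, by QuantSeq, which sequences one tag near the 3′ end of each transcript, with or without a hairpin against SETDB1, a histone H3 lysine 9 methyltransferase. There were 10 groups of 3 libraries. Caco2 cells with a scrambled hairpin (shScramble) were kept with vehicle (Veh) or in differentiation medium (Diff), which holds 10 uM troglitazone to activate PPARG and 25 nM 1α,25-dihydroxyvitamin D3 to activate VDR, added 3 days after transduction. Caco2 cells with the SETDB1 hairpin (shSETDB1) were split into KRT20-negative (nega) and KRT20-positive (posi) cells. KRT20 is a keratin of differentiated intestinal cells. HCT116 and SW480 each had shSETDB1 cells labelled KRTnega and KRTplus, called KRT-negative and KRT-positive here, and unsorted cells whose hairpin is not given in the labels. The medium of the shSETDB1 and unsorted cells is not given either, so a step from unsorted to sorted cells can include sorting, hairpin and medium together. The same holds in Caco2 for a step from shScramble to sorted shSETDB1 cells. All transduced cells were selected with puromycin. The labels do not say whether the 3 libraries of a group came from separate cultures, so the p-values measure only the spread between these samples, which may be technical.

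Total tag counts ran from 5349737 to 10221854 per library. The biological coefficient of variation, the typical relative spread of a gene between libraries of a group, had a median of 0.110 in Caco2, 0.528 in HCT116 and 0.661 in SW480, so changes were resolved far more finely in Caco2. In HCT116 and SW480 the libraries fell into one set that favoured AT-rich and one that favoured GC-rich transcripts. The calls of CCND1 and CDKN2B in these lines are given also without the smaller set. In HCT116 every KRT-positive library was in the AT set. KRT-negative replicates 2 and 3 and unsorted replicate 3 were in the GC set, so set and sort group were partly confounded there. SETDB1 stood at 28.9 to 32.2 CPM (tag counts scaled to a common library size) in Caco2 vehicle libraries and at 19.5 to 23.8 CPM in KRT20-negative and 19.7 to 26.1 CPM in KRT20-positive libraries. In HCT116 it stood at 16.8 to 72.5 CPM in unsorted, 0 to 5.75 CPM in KRT-negative and 2.15 to 31.3 CPM in KRT-positive libraries, where the libraries labelled replicates 2 and 3 (19.9 and 31.3 CPM) lay above the lowest unsorted one. In SW480 the library labelled KRT-negative replicate 1 had 36.1 CPM of SETDB1, above all unsorted libraries (15.03, 35.7 and 35.9 CPM), while the other sorted SW480 libraries had 0 to 12.1 CPM. KRT20 was at 25.9 to 37.8 CPM in Caco2 KRT20-positive and at 1.03 to 1.76 CPM in KRT20-negative libraries. It was at 44.4 to 75.1 CPM in SW480 KRT-positive libraries. In HCT116 it was at 0, 0 and 5.84 CPM in the libraries labelled KRT-positive, so KRT20 did not separate those from the KRT-negative libraries, all at 0. The 12 epithelial markers summed to 4300 to 6481 CPM in Caco2, 1425 to 2813 CPM in HCT116 (3 of the 12 at 0 in each group) and 2928 to 4676 CPM in SW480 libraries.

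The library of Caco2 KRT20-negative replicate 3 stood apart by its fibroblast markers. Its summed level of 24 fibroblast marker genes was 18050 CPM, against 7091 to 13182 CPM in the other 11 Caco2 libraries, and all 3 KRT20-negative libraries lay above every vehicle library. Of these 24 genes 21 were highest in that library and none was at 0. FN1, which was high in every Caco2 library, made up most of the sum. Without FN1 that library had 1253 CPM and the others 389 to 501 CPM. The part of these markers in the results was not tested, but the results were as follows without that library: CCND1 in KRT20-negative cells against vehicle was -0.73 (adjusted p = 7.87e-10), CCND2 -2.36 (adjusted p = 1.12e-17) and CDKN1C 1.75 (adjusted p = 1.99e-10) on the log2 scale, and CCND3 in KRT20-positive against KRT20-negative cells was 0.64 (adjusted p = 2.81e-04).

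By GENCODE 29 on GRCh38, CCND1 lies at chr11:69641087-69654474 (plus strand), CCND2 at chr12:4273772-4305350 (plus), CCND3 at chr6:41934933-42050357 (minus) and CCNE1 at chr19:29811898-29824308 (plus). CDKN1B lies at chr12:12715058-12722371 (plus), CDKN1C at chr11:2883213-2885773 (minus), CDKN2B at chr9:22002903-22009363 (minus) and CDKN2C at chr1:50960745-50974633 (plus), all protein-coding. The strand used in counting is not given in the sources used here, so tags of a gene on the opposite strand cannot be told apart. CCNE2 overlaps INTS8 and NDUFAF6 and CDKN2B overlaps CDKN2B-AS1 in this way. So does CCND2 with CCND2-AS1, which had 32 tags in all 30 libraries. CCND1 overlaps LTO1 in this way too, a symbol not found in the count tables, so its tags are not known.

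The starts of the inhibitor genes CDKN1B and CDKN2B are shown because they are the inhibitors with a single promoter in the sequence table used. Their levels also moved in opposite directions in Caco2 KRT20-positive cells against vehicle. The promoter of CDKN1B lies at chr12:12717118-12717417 on the plus strand and that of CDKN2B at chr9:22009256-22009555 on the minus strand (RefSeq, GRCh38.p14, from 250 bases before to 50 bases after the start). Capitals mark the GC box GGGCGG on either strand.
CDKN1B: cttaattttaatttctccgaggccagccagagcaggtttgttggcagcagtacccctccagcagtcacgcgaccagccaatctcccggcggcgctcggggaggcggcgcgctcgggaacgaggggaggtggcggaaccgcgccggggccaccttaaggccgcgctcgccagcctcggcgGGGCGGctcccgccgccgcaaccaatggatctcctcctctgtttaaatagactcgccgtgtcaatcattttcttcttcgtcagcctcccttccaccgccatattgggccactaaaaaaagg
CDKN2B: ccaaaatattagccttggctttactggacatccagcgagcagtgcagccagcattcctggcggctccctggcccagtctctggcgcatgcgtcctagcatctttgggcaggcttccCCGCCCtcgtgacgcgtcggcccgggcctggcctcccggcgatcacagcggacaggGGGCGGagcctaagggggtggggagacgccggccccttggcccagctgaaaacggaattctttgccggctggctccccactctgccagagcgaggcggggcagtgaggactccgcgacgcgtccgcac
The CDKN1B window held 1 GC box and the CDKN2B window 2. This motif occurred in 44.9% of 34943 promoters of the same length. Neither window held the E2F-type motif TTTNNCGC (6.85% of promoters) or the E-box CACGTG (7.23%), each searched on both strands, which says only that those letters are not in these windows. Of the 10 genes, 5 had a promoter in the table. The CCNE1 window held 7 GC boxes, and an E-box occurred in 2 of the 3 CDKN2C windows.

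In Caco2 the sorted cells with the SETDB1 hairpin had lower CCND1 and CCND2 and higher CDKN1C than vehicle cells, and cells in differentiation medium had higher CCND1, CCND3, CDKN1C and MYC. In differentiation medium against vehicle 4 of the 10 genes rose and 3 fell at 5% false discovery rate (edgeR's quasi-likelihood test), where 20.9% of all 13968 tested genes were called, 10.4% higher and 10.5% lower. The libraries did not overlap for 8 of the 10, beside 39.1% of all genes. In KRT20-negative cells against vehicle 2 rose and 3 fell, beside 36.2% of all genes (18.6% higher, 17.6% lower), and 4 did not overlap (44.7%). In KRT20-positive cells against vehicle 3 rose and 3 fell, beside 37.7% of all genes (19.3% higher, 18.4% lower), and 7 did not overlap (51.3%). These comparisons share the vehicle libraries, and the shares of called genes among the 10 rest on few genes. Between KRT20-positive and KRT20-negative cells 1 gene, CCND3, was called, higher in positive cells, beside 4.08% of all genes (2.3% higher, 1.78% lower), and 4 did not overlap (19.8%). Against differentiation medium 2 rose and 4 fell in KRT20-negative cells, beside 38% of all genes (19.6% higher, 18.4% lower), and 5 did not overlap (46.1%). In KRT20-positive cells against that medium 2 rose and 3 fell, beside 34.5% of all genes (18% higher, 16.6% lower), and 7 did not overlap (48.7%).

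**Figure D1:**
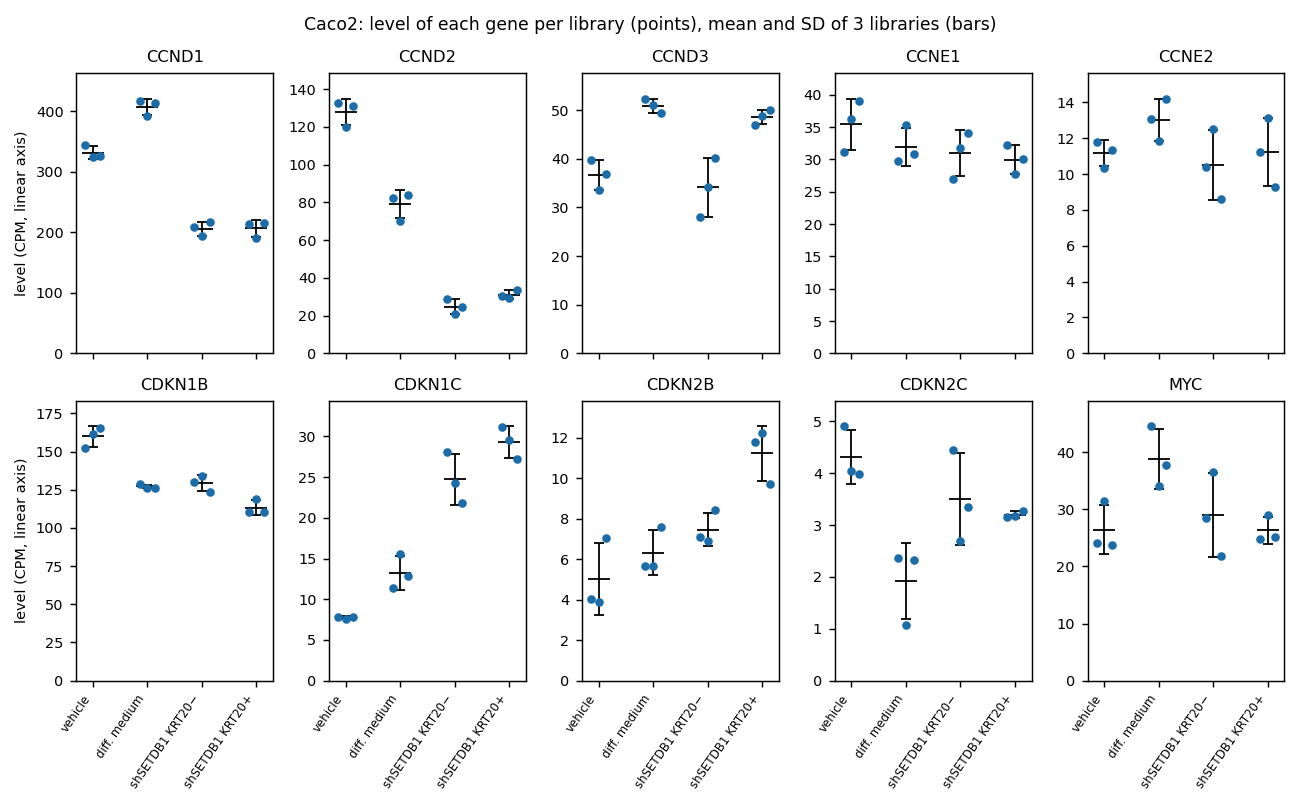
Level in CPM (linear axis from 0) of each of the 10 genes in the 12 Caco2 libraries, by group. Points are libraries and bars the mean and SD of 3. CCND2 falls from 120 to 133 CPM with vehicle to 21.1 to 33.7 CPM in the libraries with the SETDB1 hairpin, while CDKN1C rises from 7.53 to 7.86 CPM to 21.9 to 31.1 CPM.

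Against vehicle CCND2 showed the largest change of the 10 genes in both sorted groups, but not in differentiation medium. With vehicle it stood at 133, 120 and 131 CPM, in differentiation medium at 82.3, 70.4 and 84.1 CPM, in KRT20-negative cells at 28.97, 21.1 and 24.3 CPM and in KRT20-positive cells at 30.2, 29.5 and 33.7 CPM. Every library with the SETDB1 hairpin lay below every differentiation medium library, and those below every vehicle library. The level in KRT20-negative cells was 0.194 times the vehicle level, a log2 change of -2.37 ± 0.11 (SE, adjusted p = 2.55e-14, lower in 3 of 3 libraries). In KRT20-positive cells it was 0.243 times (log2 -2.04 ± 0.11, adjusted p = 3.12e-13), and in differentiation medium 0.616 times (log2 -0.70 ± 0.10, adjusted p = 2.04e-05). Against differentiation medium CCND2 was lower by 1.67 (log2 -1.67, adjusted p = 2.65e-11) in KRT20-negative and by 1.34 (log2 -1.34, adjusted p = 1.09e-09) in KRT20-positive cells. It was higher in KRT20-positive than in KRT20-negative cells by 0.33 on the log2 scale (adjusted p = 0.134). With the replicate number as a block that difference was 0.33 (adjusted p = 0.0486). In these bulk samples fewer cells that express a gene and less of its RNA per cell cannot be told apart.

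CCND1, the D-type cyclin with most tags, was higher in differentiation medium and lower in the sorted cells with the SETDB1 hairpin than with vehicle. Its levels were 344, 325 and 326 CPM with vehicle and 417, 392 and 414 CPM in differentiation medium. They were 209, 193 and 217 CPM in KRT20-negative cells and 214, 191 and 216 CPM in KRT20-positive cells. The groups did not overlap except for the sorted ones with each other. The log2 change against vehicle was 0.30 ± 0.07 (adjusted p = 0.00445) in differentiation medium, -0.69 ± 0.07 (adjusted p = 8.63e-08) in KRT20-negative and -0.68 ± 0.07 (adjusted p = 7.85e-08) in KRT20-positive cells. Between the sorted groups the difference was 0.00 (95% interval -0.15 to 0.16).

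CCND3, the third D-type cyclin, went another way. It stood at 39.8, 33.6 and 36.8 CPM with vehicle, 52.2, 51.2 and 49.4 CPM in differentiation medium, 27.95, 34.2 and 40.2 CPM in KRT20-negative and 47.0, 48.7 and 50.1 CPM in KRT20-positive cells. Its log2 change against vehicle was 0.47 ± 0.12 (adjusted p = 0.00477) in differentiation medium and 0.40 ± 0.12 (adjusted p = 0.00798) in KRT20-positive cells. In KRT20-negative cells the change of -0.11 did not pass the test (95% interval -0.35 to 0.14). KRT20-positive cells had 1.42 times the level of KRT20-negative cells (log2 0.51 ± 0.11, adjusted p = 0.0104), all 3 positive libraries above all 3 negative ones. This call was lost without KRT20-negative replicate 1 (adjusted p = 0.0581) or KRT20-positive replicate 3 (adjusted p = 0.0524), and when these groups were fitted alone (adjusted p = 0.0571).

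Together the D-type cyclins gave 496 ± 19.1 CPM with vehicle, 537 ± 20.9 CPM in differentiation medium, 265 ± 16.2 CPM in KRT20-negative and 286 ± 15.9 CPM in KRT20-positive cells (mean ± SD, n = 3). A tag is counted once per transcript end in this assay, so shares of tags do not scale with transcript length. CCND2 held 25.8% ± 0.72 of D-type cyclin tags with vehicle, 14.7% ± 0.86 in differentiation medium, 9.35% ± 1.36 in KRT20-negative and 10.9% ± 0.44 in KRT20-positive cells. CCND3 went from 7.39% ± 0.34 with vehicle to 12.9% ± 2.04 in KRT20-negative and 17.0% ± 1.00 in KRT20-positive cells. CCND1 gave most of the D-type cyclin tags in all 12 Caco2 libraries.

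**Figure D2:**
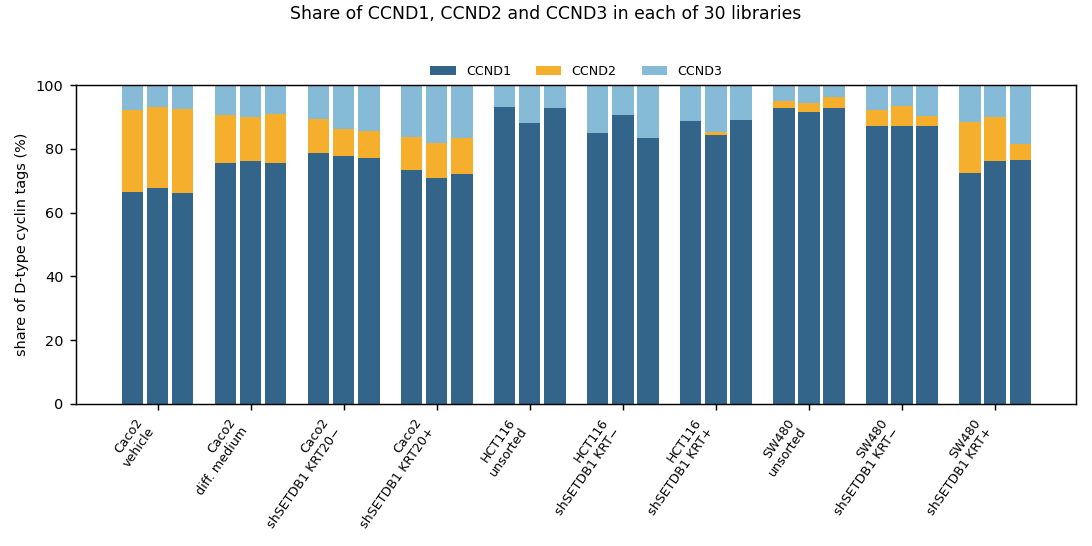
Share of D-type cyclin tags (%, stacked to 100) from CCND1, CCND2 and CCND3 in each of the 30 libraries, by line and group. CCND2 takes 25.1 to 26.5% of the tags in the Caco2 vehicle libraries, 8.48 to 11.2% in those with the SETDB1 hairpin and under 1% in every HCT116 library.

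The E-type cyclins, which carry cells over the G1 to S border, were not called in any Caco2 comparison. CCNE1 stood at 31.2, 36.2 and 39.0 CPM with vehicle, 29.7, 35.3 and 30.8 CPM in differentiation medium, 27.0, 31.7 and 34.1 CPM in KRT20-negative and 32.2, 27.7 and 30 CPM in KRT20-positive cells. These groups overlapped. The lowest of its adjusted p-values against vehicle was 0.134, in KRT20-positive cells (log2 -0.24, 95% interval -0.49 to 0.02). CCNE2 ranged from 8.61 to 14.2 CPM over the 12 libraries, and its log2 changes against vehicle were 0.22, -0.09 and 0.01 in differentiation medium, KRT20-negative and KRT20-positive cells, with 95% intervals within -0.47 to 0.60. In differentiation medium its libraries lay above those with vehicle without overlap (adjusted p = 0.417).

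CDKN1C, which makes the inhibitor p57, rose in all 3 groups against vehicle. It stood at 7.86, 7.53 and 7.83 CPM with vehicle, 11.3, 15.5 and 12.9 CPM in differentiation medium, 28.1, 24.3 and 21.9 CPM in KRT20-negative and 31.1, 29.6 and 27.3 CPM in KRT20-positive cells. The levels rose in that order, and only the sorted groups overlapped. Its log2 change was 0.76 ± 0.17 (adjusted p = 0.00169) in differentiation medium, 1.67 ± 0.16 (adjusted p = 1.05e-08) in KRT20-negative and 1.92 ± 0.16 (adjusted p = 7.18e-10) in KRT20-positive cells. That is 1.71, 3.19 and 3.79 times the vehicle level. Against differentiation medium it was 0.91 higher (adjusted p = 2.84e-05) in KRT20-negative and 1.15 higher (adjusted p = 1.21e-06) in KRT20-positive cells on the log2 scale.

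CDKN1B, which makes p27, moved the other way. It stood at 153, 162 and 166 CPM with vehicle, 129, 126 and 127 CPM in differentiation medium, 130, 134 and 124 CPM in KRT20-negative and 111, 119 and 110 CPM in KRT20-positive cells. No library of the other 3 groups reached the lowest vehicle library. Its log2 change was -0.33 ± 0.07 (adjusted p = 0.00242) in differentiation medium, -0.31 ± 0.07 (adjusted p = 0.00216) in KRT20-negative and -0.50 ± 0.08 (adjusted p = 1.16e-05) in KRT20-positive cells. Between KRT20-positive and KRT20-negative cells it was -0.19 (adjusted p = 0.186).

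The INK4 genes were near the bottom of the measured range in Caco2. CDKN2B gave 29 to 92 tags per library. Its levels were 4.05, 3.901 and 7.06 CPM with vehicle, 5.66, 5.68 and 7.61 CPM in differentiation medium, 7.07, 6.91 and 8.41 CPM in KRT20-negative and 11.8, 12.2 and 9.70 CPM in KRT20-positive cells. The KRT20-positive libraries lay above all others. There CDKN2B had 2.24 times the vehicle level (log2 1.18 ± 0.23, adjusted p = 2.54e-04) and 1.78 times the differentiation medium level (log2 0.83 ± 0.22, adjusted p = 0.00547). In KRT20-negative cells it was called at the threshold (log2 0.60 ± 0.23, adjusted p = 0.04999) with overlapping libraries, and lost the call in DESeq2 (adjusted p = 0.0990) and with its size factors in edgeR (adjusted p = 0.0541). The call was lost too with library totals (adjusted p = 0.0509), no filter (adjusted p = 0.0634) and these groups fitted alone (adjusted p = 0.102). CDKN2B also lost it without most single libraries (adjusted p from 0.00761 to 0.202). Reads of its antisense partner CDKN2B-AS1 cannot be told apart where the counting strand is not stated, and that gene had 241 tags in all 30 libraries.

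CDKN2C gave 7 to 40 tags per Caco2 library. It stood at 4.91, 4.04 and 3.99 CPM with vehicle and 2.36, 1.08 and 2.32 CPM in differentiation medium, a log2 change of -1.14 ± 0.32 (adjusted p = 0.0137). It was not called in KRT20-negative cells (4.45, 2.69 and 3.34 CPM) or in KRT20-positive cells (3.15, 3.18 and 3.28 CPM, below every vehicle library, adjusted p = 0.283) against vehicle. The fall in differentiation medium lost its call without vehicle replicate 1 (adjusted p = 0.0657) or differentiation medium replicate 2 (adjusted p = 0.0762). Against differentiation medium it was higher in KRT20-negative cells (log2 0.83, adjusted p = 0.0459), a call that was lost in DESeq2 and without most single libraries.

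MYC rose in differentiation medium and was not called against vehicle in the sorted cells. It stood at 24.1, 31.5 and 23.8 CPM with vehicle, 44.6, 34.1 and 37.8 CPM in differentiation medium, 28.4, 36.6 and 21.9 CPM in KRT20-negative and 24.8, 29.1 and 25.2 CPM in KRT20-positive cells. Every differentiation medium library lay above every vehicle and KRT20-positive library, while KRT20-negative libraries overlapped both. The log2 change in differentiation medium was 0.56 ± 0.16 (adjusted p = 0.0164). It missed the threshold without vehicle replicate 1 (adjusted p = 0.0875), vehicle replicate 3 (adjusted p = 0.0804) or differentiation medium replicate 1 (adjusted p = 0.0947). Against vehicle the changes were 0.12 (95% interval -0.21 to 0.46) in KRT20-negative and -0.01 (95% interval -0.35 to 0.34) in KRT20-positive cells. Against differentiation medium MYC was lower in KRT20-positive cells (log2 -0.56, adjusted p = 0.00915), a call lost without differentiation medium replicate 1 (adjusted p = 0.0621). It was also called lower in KRT20-negative cells (log2 -0.43, adjusted p = 0.0342) with overlapping libraries. That call was lost with library totals (adjusted p = 0.0694), with these groups fitted alone (adjusted p = 0.0711) and without KRT20-negative replicate 1 (adjusted p = 0.0771) or 3 (adjusted p = 0.130) or differentiation medium replicate 1 (adjusted p = 0.173) or 3 (adjusted p = 0.0644).

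**Figure D3:**
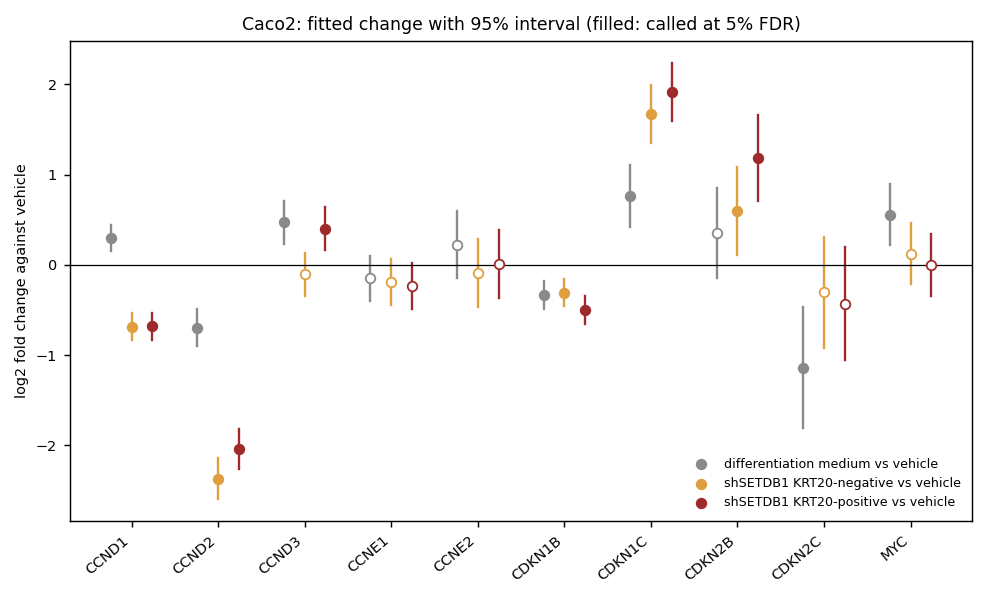
Fitted log2 fold change against vehicle (y axis) for each of the 10 genes in Caco2, with its 95% interval as a line. Filled points passed the test at 5% false discovery rate. CCND2 lies at -2.37 and -2.04 and CDKN1C at 1.67 and 1.92 with the SETDB1 hairpin.

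Among the Caco2 genes with a level like these ones over the 12 libraries (Pearson's r of log2(CPM + 1), 10024 genes compared, a description since libraries of a group share their treatment), CCND1 was followed most closely by ANKRD1 (r = 0.995), TRIB3 (0.989) and RAB3B (0.988). CCND2 was followed by AKAP2 (0.989), POLE3 (0.988) and GPT2 (0.985), and CDKN1C by AADAC (0.988), GXYLT2 (0.988) and RNF103 (0.983). For CCND3 these were PLEKHB2 (0.937), TUBA4A (0.907) and TRABD2A (0.891), and for CDKN1B they were AMOT (0.968), KIAA0922 (0.966) and GLUD1 (0.962). CDKN2B had GOLM1 (0.943), CYP3A5 (0.934) and RAB3D (0.925), and MYC had MTX2 (0.929), C1orf56 (0.914) and MFN1 (0.907). Among the 10 genes themselves CCND2 and CDKN1C had r = -0.948 and CCND1 and CCND2 r = 0.863 over the same 12 libraries.

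In HCT116 CCND2 was close to absent and CCND1 was high. CCND2 gave no tag in 6 of 9 libraries, and 2, 2 and 59 tags in the other 3. A count of 0 allows up to 0.29 to 0.48 CPM in those 6 libraries, counting error only. SW480 had 46.3 to 154 CPM of CCND2. With only 4 tags in the 3 unsorted HCT116 libraries, the fitted log2 difference of -7.88 from unsorted SW480 cells (adjusted p = 0.00216) depends on the prior count. CCND1 had 754 to 862 CPM in unsorted HCT116 and 1709 to 1984 CPM in unsorted SW480 cells, a log2 difference of -1.23 ± 0.16 (adjusted p = 1.76e-05). These 2 genes, both lower in HCT116, were the ones called of the 10, beside 10.3% of 14851 genes (4.8% higher, 5.51% lower), and 3 of the 10 did not overlap (32.3% of all genes). Levels were scaled within each line, so values set against those of Caco2 are only side by side.

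CCND1 fell in KRT-positive SW480 cells. CCND1 stood at 1984, 1797 and 1709 CPM in unsorted, 1669, 1292 and 1520 CPM in KRT-negative and 706, 782 and 694 CPM in KRT-positive libraries. The KRT-positive libraries lay below all others of the line, and the KRT-negative below the unsorted. KRT-positive cells had 0.397 times the unsorted level (log2 -1.33 ± 0.17, adjusted p = 5.96e-04) and 0.487 times the KRT-negative level (log2 -1.04 ± 0.16, adjusted p = 0.0140). From the GC-favouring libraries alone the values were -1.40 (adjusted p = 0.00353) and -1.19 (adjusted p = 0.0421). The first call held without each single library. The second was lost without the library labelled KRT-negative replicate 1 (adjusted p = 0.0961), KRT-negative replicate 3 (adjusted p = 0.124) or KRT-positive replicate 1 (adjusted p = 0.0608). CCND1 was the one gene of the 10 called in both comparisons. Against unsorted cells 3.47% of 13252 genes were called (1.9% higher, 1.57% lower) and 2 of the 10 did not overlap (22.7% of all genes). Against KRT-negative cells 0.445% were called (0.226% higher, 0.219% lower) and 3 did not overlap (17.7%). In KRT-negative against unsorted cells edgeR called none of the 10, beside 2.12% of all genes (1.36% higher, 0.762% lower), 2 did not overlap (24.5%), CDKN2B had the one unadjusted p under 0.05 (0.00178) and DESeq2 called 1. There CCND1 had a log2 change of -0.29 (adjusted p = 0.510).

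In HCT116 CCND1 stood at 827, 754 and 862 CPM in unsorted, 632, 718 and 611 CPM in KRT-negative and 513, 526 and 624 CPM in KRT-positive libraries. Both sorted groups lay below the unsorted libraries. The log2 change in KRT-positive cells was -0.55 ± 0.19 (adjusted p = 0.0798), which passed the threshold in DESeq2 (adjusted p = 0.0104) and with the GC set of the library as a term (adjusted p = 0.0322). With the AT-favouring libraries alone it was -0.51 (adjusted p = 0.0689). Whether the KRT-positive step of CCND1 differed between SW480 and HCT116 was tested in a joint fit, and the difference of -0.79 ± 0.23 on the log2 scale had an adjusted p of 0.107.

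CDKN2B rose in HCT116 KRT-positive cells, the one gene called of the 8 tested there, beside 9.28% of 13279 genes (4.26% higher, 5.02% lower). The libraries of 4 of the 8 did not overlap, beside 30.3% of all genes. Its levels were 56.1, 29.3 and 39.0 CPM in unsorted, 102, 25.9 and 118 CPM in KRT-negative and 198, 115 and 144 CPM in KRT-positive libraries. Every KRT-positive library lay above every unsorted one, at 3.68 times the level (log2 1.88 ± 0.46, adjusted p = 0.0162). With the AT-favouring libraries alone the change was 1.84 (adjusted p = 0.00318). The call was lost without KRT-positive replicate 1 (adjusted p = 0.0771) or unsorted replicate 2 (adjusted p = 0.0665). In KRT-negative cells edgeR and DESeq2 called none of the 8, beside 5.26% of all genes in edgeR (2.82% higher, 2.44% lower), and 2 did not overlap (24.5%). There CDKN2B had 1.98 times the unsorted level (unadjusted p = 0.0453, the one under 0.05, adjusted p = 0.266), with one library below all unsorted ones. Without that library, replicate 2, the log2 change was 1.41 (adjusted p = 0.0408). Between KRT-positive and KRT-negative HCT116 cells both tools called none of the 8, beside 0.55% of all genes in edgeR (0.166% higher, 0.384% lower), none lay apart without overlap (18.2% of all genes), and MYC had the one unadjusted p under 0.05 (0.0141).

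In SW480 CDKN2B stood at 20.6, 19.99 and 18.4 CPM in unsorted, 49.0, 70.1 and 68.2 CPM in KRT-negative and 45.4, 26.5 and 32.7 CPM in KRT-positive libraries. Both sorted groups lay above the unsorted libraries without overlap. The KRT-negative level was 3.17 times the unsorted one (log2 1.67 ± 0.43, adjusted p = 0.0693), which passed in DESeq2 (adjusted p = 0.00192), with these 2 groups fitted alone (adjusted p = 0.0336) and with the GC set as a term (adjusted p = 0.0492). With the GC-favouring libraries alone it was 1.58 (adjusted p = 0.286). In KRT-positive cells it was 1.77 times (log2 0.82, adjusted p = 0.353).

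MYC did not pass the test in HCT116 or SW480. In HCT116 it stood at 49.4, 25.6 and 32.0 CPM in unsorted, 19.0, 70.9 and 38.8 CPM in KRT-negative and 21.5, 5.71 and 14.1 CPM in KRT-positive libraries, a log2 change of -1.38 (adjusted p = 0.177) from unsorted to KRT-positive, whose libraries all lay below the unsorted ones. In SW480 it stood at 43.4, 46.9 and 31.0 CPM in unsorted, 80.5, 84.9 and 45.3 CPM in KRT-negative and 0.305, 34.1 and 16.1 CPM in KRT-positive libraries. The KRT-positive libraries lay below the KRT-negative ones and overlapped the unsorted ones. The change from KRT-negative to KRT-positive SW480 cells was -2.06 (95% interval -4.00 to -0.12, adjusted p = 0.422).

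The other genes varied widely between libraries of a group. CDKN1C ranged from 17.6 to 60.2 CPM in HCT116 and 25.6 to 50.4 CPM in SW480. CDKN1B ranged from 2.28 to 37.6 CPM in HCT116 and 14.7 to 63.5 CPM in SW480. Neither CIP/KIP gene was called in these lines. CCND2 in SW480 stood at 48.3, 51.7 and 63.6 CPM in unsorted and 154, 142 and 46.3 CPM in KRT-positive libraries. That log2 change of 1.06 had an adjusted p of 0.208, and 1.44 with 0.0453 without KRT-positive replicate 3. CCNE1 ranged from 4.49 to 45.0 CPM in SW480 and 9.43 to 49.0 CPM in HCT116. CCNE2 was at 0 in 3 of 9 SW480 and 2 of 9 HCT116 libraries, and CDKN2C in 1 and 4. CCND2 and CDKN2C were too low in HCT116 to be tested.

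**Figure D4:**
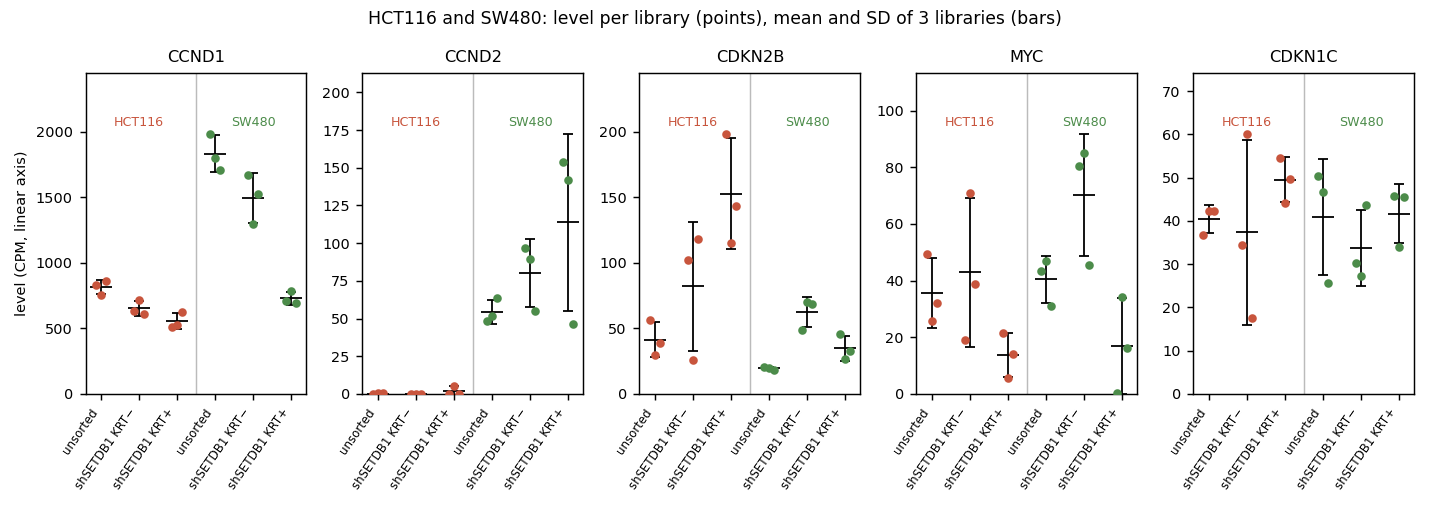
Level in CPM (linear axis from 0) of CCND1, CCND2, CDKN2B, MYC and CDKN1C in HCT116 (red) and SW480 (green) libraries, by group. Points are libraries and bars the mean and SD of 3. CCND1 in SW480 KRT-positive libraries lies at 694 to 782 CPM, below every other SW480 library.

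Of the other genes of the G1 to S pathway (40 genes, 37 tested in Caco2) 1 rose and 4 fell in differentiation medium against vehicle, and 3 rose and 9 fell in each sorted group. That is 13.5%, 32.4% and 32.4% of the list called, beside 20.9%, 36.2% and 37.7% of all genes. With the replicate block 14 fell in KRT20-negative cells and 2 rose in differentiation medium. With single libraries left out 7 to 12 fell in each sorted group, and without KRT20-negative replicate 3 the counts in differentiation medium were 4 higher and 6 lower and in KRT20-positive cells 5 higher and 12 lower. The median log2 change of the list was -0.04, -0.16 and -0.15 in differentiation medium, KRT20-negative and KRT20-positive cells, beside -0.00, 0.01 and 0.01 over all genes. CDKN1A, which makes p21, rose from 7.43 to 16.7 CPM in differentiation medium (log2 1.15, adjusted p = 2.05e-04), to 18.1 CPM in KRT20-negative (log2 1.29, adjusted p = 1.63e-05) and to 29.1 CPM in KRT20-positive cells (log2 1.97, adjusted p = 2.00e-08). CDK6, the partner of D-type cyclins, fell from 308 CPM to 151 CPM in differentiation medium, 205 CPM in KRT20-negative and 170 CPM in KRT20-positive cells, and the lowest of the log2 changes was -1.03 (adjusted p = 8.01e-10). CCNA2, the cyclin of S phase, fell from 161 CPM to 108 CPM in KRT20-negative cells (log2 -0.58, adjusted p = 8.28e-07). In HCT116 KRT-positive cells 2 rose and 7 fell of 38 tested, beside 4.26% and 5.02% of all genes. These counts were 0 and 3 without KRT-positive replicate 1, and 1 and 3 with the AT-favouring libraries alone. CKS1B (log2 -1.85, adjusted p = 2.84e-04) and CDK2 (log2 -1.65, adjusted p = 0.00148) fell there. SKP2 fell as well (log2 -2.93, adjusted p = 0.0122), and CDKN1A rose from 254 to 497 CPM (log2 0.97, adjusted p = 0.0126). In HCT116 KRT-negative cells CDKN1A also rose, to 620 CPM (log2 1.29, adjusted p = 0.00305), and SKP2 also fell (log2 -3.29, adjusted p = 0.0106). No gene of the list was called between the sorted HCT116 groups. In SW480 KRT-positive cells 2 of 37 rose and none fell, beside 1.9% and 1.57% of all genes (1 and 1 with the GC-favouring libraries alone). CDK6 rose there from 139 to 444 CPM (log2 1.68, adjusted p = 0.00405). In SW480 KRT-negative cells CDK6 also rose, to 712 CPM (log2 2.35, adjusted p = 5.21e-04).

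MYC partners and antagonists (22 genes in the tables) changed in both directions: 3 rose and 5 fell in differentiation medium, 5 and 5 in KRT20-negative cells and 6 and 6 in KRT20-positive cells. That is 36.4%, 45.5% and 54.5% of the list, beside 20.9%, 36.2% and 37.7% of all genes. MXD4, which competes with MYC for MAX, rose from 11.5 to 41.7 CPM in KRT20-negative cells (log2 1.85, adjusted p = 5.76e-09), and MXD3 fell from 252 to 163 CPM (log2 -0.63, adjusted p = 2.04e-07). WNT, TGF-beta, FOXO and other factors upstream of these genes (24 genes) also went both ways, with 3 higher and 4 lower in differentiation medium, 6 and 6 in KRT20-negative and 5 and 7 in KRT20-positive cells (5 higher in differentiation medium with the replicate block). That is 29.2%, 50% and 50% of the list, beside 20.9%, 36.2% and 37.7% of all genes. In KRT20-negative cells EGR1 (log2 0.69, adjusted p = 7.6e-07) and CDX2 (log2 0.53, adjusted p = 1.4e-06) rose. AXIN2, a WNT target, fell there from 25.8 to 11.6 CPM (log2 -1.15, adjusted p = 4.16e-06). NKD1, another WNT target, fell to 12.6 CPM in KRT20-positive cells (log2 -1.72, adjusted p = 4.30e-10), while CDX2 rose (log2 0.60, adjusted p = 2.3e-07). In differentiation medium, where CCND1 and MYC were called higher, NKD1 fell as well (log2 -0.98, adjusted p = 4.95e-06). TCF7 (log2 -0.70, adjusted p = 1.53e-04) and LEF1 (log2 -0.74, adjusted p = 9.71e-04) also fell in that medium, and TGFBR2 rose (log2 0.74, adjusted p = 4.72e-04). In SW480 KRT-positive cells NKD1 (log2 -2.57, adjusted p = 0.00255) and AXIN2 (log2 -1.47, adjusted p = 0.0151) fell too. FOXO1 (log2 2.84, adjusted p = 0.00226) and TGFBR2 (log2 2.525, adjusted p = 0.00784) rose in those cells. Of this list 2 rose and 3 fell of 22 tested there, beside 1.9% and 1.57% of all genes, and 1 and 1 with the GC-favouring libraries alone. In SW480 KRT-negative against unsorted cells FOXO1 also rose (log2 2.33, adjusted p = 0.00899) and NKD1 also fell (log2 -1.84, adjusted p = 0.0225). EGR1, unlike in Caco2, fell there (log2 -2.15, adjusted p = 6.24e-05). In HCT116 EGR1 fell against unsorted cells in KRT-negative (log2 -1.59, adjusted p = 0.00155) and KRT-positive cells (log2 -1.49, adjusted p = 0.00164).

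Of the MYC target genes of ribosome biogenesis, nucleotide and polyamine synthesis 52 of 53 were tested. In KRT20-negative Caco2 cells 33 of the 52 fell and 0 rose against vehicle, with a median log2 change of -0.35 beside 0.01 over all genes, where 17.6% of all genes fell. In KRT20-positive cells 28 fell and 0 rose (median -0.34 beside 0.01, 18.4% of all genes fell). Without KRT20-negative replicate 3 both counts were 32. In differentiation medium, where MYC itself was called higher, 8 fell and 3 rose (median -0.01 beside -0.00). That is 21.2% of the list called, beside 20.9% of all genes (10.4% higher, 10.5% lower). With single libraries left out 4 to 11 fell, the fewest without differentiation medium replicate 2. HSPD1, a mitochondrial chaperone, fell from 2262 to 1288 CPM in KRT20-negative cells (log2 -0.81, adjusted p = 5.88e-09) and NCL, which makes nucleolin, from 2346 to 1516 CPM (log2 -0.63, adjusted p = 6.36e-07). In HCT116 KRT-positive cells 21 of 52 fell and 0 rose (median -1.12 beside 0.07, 5.02% of all genes fell), and 18 did with the AT-favouring libraries alone and 13 without KRT-positive replicate 3. In SW480 KRT-positive cells 2 of 52 fell (CAD and FBL), beside 1.57% of all genes, and 0 to 2 with single libraries left out.

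**Figure D5:**
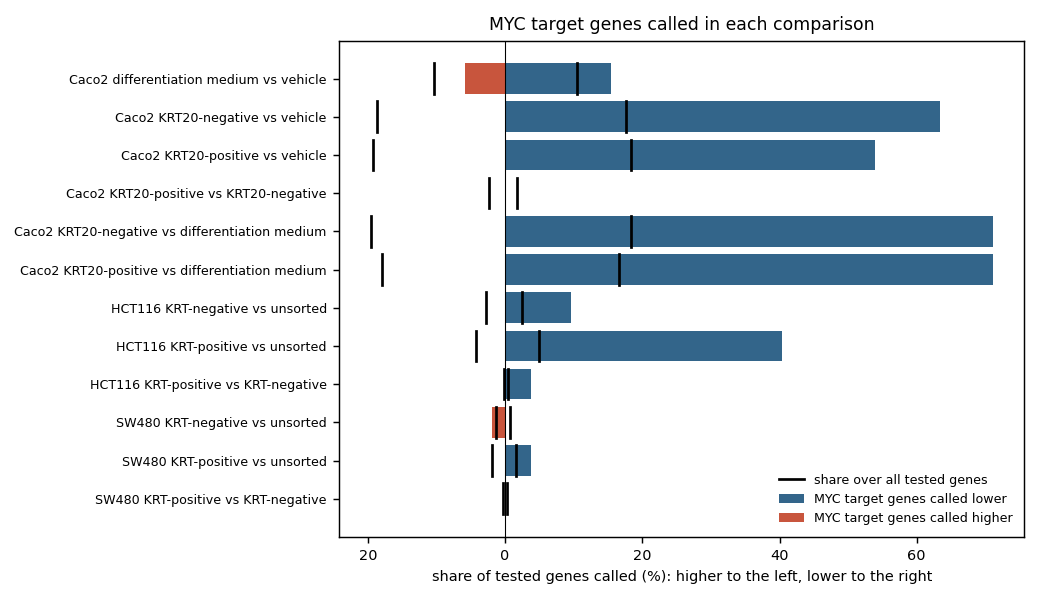
Share of 52 tested MYC target genes called lower (blue, to the right) and higher (red, to the left) at 5% false discovery rate in each comparison, with the share of all tested genes called in that direction as a black mark. In KRT20-negative against vehicle 33 of 52 fell, beside 17.6% of all genes.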

How the data were processed

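QuantSeq tag counts per gene symbol were deposited by the authors as raw counts, per the file values, with Bowtie2, edgeR and the hg19 build named in the submitters' processing notes. Lines of a repeated symbol (1561 lines of 286 symbols) were summed. Each line was fitted with its own groups in edgeR 4.0.16 (R 4.3.3, TMM factors, filterByExpr, robust quasi-likelihood test), with Benjamini-Hochberg adjustment at 5% over all tested genes, and levels are CPM of those factors. The fits were also run on simulated independent counts. These held no GC sets, pairing or outlying library, so that check does not cover such features of the data. DESeq2 1.42.0, RLE factors, library totals, no filter, a replicate block, GC set and leaving out libraries were the alternatives. Samples were grouped by title. Loci, GC content and overlapping genes came from GENCODE 29 on GRCh38, not the files' build, so no coordinates of the files are used.

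A library was put in the AT or GC set by the sign of the slope of its log2 CPM on transcript GC content. The slope is relative to the line, so a line can split even where its libraries differ little. All 10 genes are named, with up to 4 genes per list and comparison by smallest adjusted p, and for each gene called in Caco2 the 3 most alike with a mean of at least 10 CPM in a Caco2 group (not for CDKN2C, itself below that level). The members and lists were chosen with earlier results of these data known. As a pairing check, deviations of same-numbered Caco2 libraries correlated above 0.1 in 16 of 18 pairs, and in all 3 pairs of differentiation medium and vehicle, KRT20-negative and vehicle, KRT20-positive and KRT20-negative, and KRT20-negative and differentiation medium. Same-numbered libraries may thus be paired there, by the data and not by the labels. The main fits held no such pairing, so Caco2 values are unpaired unless the replicate block is named. Between KRT20-positive and KRT20-negative cells 570 genes were called without the block and 803 with it. In HCT116 2 of 9 pairs and in SW480 4 of 9 were above 0.1. Depth was 5349737 to 10221854 counts per library.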

Additional observations from a re-analysis of the deposited data

Results flagged for a closer look

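The step of CCND1 from KRT-negative to KRT-positive cells differed between Caco2 and SW480 in a joint fit of both lines. The difference, Caco2 minus SW480, was 1.08 ± 0.14 on the log2 scale (adjusted p = 4.70e-04, 449 of 15339 genes called in that test). The joint fit used one spread per gene for both lines, although the median coefficient of variation was 0.110 in Caco2 and 0.661 in SW480. Its SE of 0.144 was below the SE of 0.164 of the SW480 step in its own fit, so this p-value can overstate the evidence. In Caco2 the step was 0.00, with libraries of both groups overlapping, and in SW480 -1.04, with all 3 KRT-positive libraries below all 3 KRT-negative ones. The SW480 sort is labelled KRT and the Caco2 sort KRT20, and the library labelled SW480 KRT-negative replicate 1 had an unsorted-like SETDB1 level, whose part in the joint result was not tested. Without that library the SW480 step was -0.96 (adjusted p = 0.0961).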

How the results depend on the processing

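The 10 genes gave 41 values (a gene in a comparison) called in at least one fit, and these kept their sign in every alternative. The other 83 were called in none, and 66 of their 1493 alternative values had the other sign. Scaling by library totals moved the median of all genes to 0.291 in HCT116 KRT-positive against unsorted cells and to 0.212 against KRT-negative cells. DESeq2 called 1304 genes in HCT116 KRT-negative against unsorted, 2011 (2 of the 10) in KRT-positive against unsorted and 465 in KRT-positive against KRT-negative cells. In SW480 DESeq2 called 820 (1 of the 10), 1352 and 503 in the same order, and 2608 between unsorted HCT116 and SW480 cells. With the 2 groups alone the calls between positive and negative cells were 307 (0 of the 10) in Caco2, 126 in HCT116 and 18 (0 of the 10) in SW480, and 432 (1 of the 10) and 228 in SW480 KRT-negative and KRT-positive against unsorted cells. With no filter 189 and 101 genes were called between KRT-positive and KRT-negative HCT116 and SW480 cells. With the GC set as a term, 45 were called there in HCT116, and 2 of the 10 in KRT-positive against unsorted cells. In SW480 that term gave 531 (1 of the 10), 887 and 224 for KRT-negative and KRT-positive against unsorted and against each other. The AT-favouring HCT116 libraries alone, with 1 KRT-negative library that is assumed to vary like the others, gave 350 in KRT-negative against unsorted and 46 between the sorted groups. The GC-favouring SW480 libraries alone gave 122, 238 and 24. Both restrictions were chosen after seeing the data. With the replicate block, 2 of the 10 (CCND2 and CCND3) were called between Caco2 KRT20-positive and KRT20-negative cells, and no other call of the 10 changed. In SW480 the block gave 461, 793 and 179 genes. There the number follows the GC set: replicate 2 of all 3 groups is AT-favouring and replicates 1 and 3 are GC-favouring. All 9 same-number correlations were positive (0.0283 to 0.301), 4 of them above 0.1. Leaving out 1 library at a time gave 2048 to 3749 genes (5 to 7 of the 10) in Caco2 differentiation medium against vehicle, 4130 to 5261 (4 to 5) in KRT20-negative and 4426 to 6013 (6) in KRT20-positive against vehicle. It gave 4448 to 5278 (4 to 6) and 3976 to 5655 (4 to 6) against differentiation medium, and 297 to 651 (0 to 1) between the sorted groups. In HCT116 it gave 395 to 730 (0 to 1), 812 to 1290 (0 to 1) and 15 to 172 (0), in SW480 130 to 344 (0), 219 to 510 (1 to 2) and 7 to 98 (0 to 1), and between the lines 952 to 1646 (2). The cause of these shifts was not tested. Where 3 counts or fewer were seen, depth did not allow a level to be told from 0.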
